A study of Mus musculus with 4 samples.

Results

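The DNA methylation maps were read at 8 genes that mark the change of the gut from milk to solid food, namely Prdm1, Lct, Sis, Treh, Glb1, Arg2, Ass1 and Cps1. They were chosen by name for their known part in the suckling to adult transition, and they are 8 of 22208 protein-coding genes of the annotation. Each gene was cut into bins of 200 bp from 5 kb before the transcription start to the end of the gene. Of 1778 such bins with a CpG, 1231 had at least 10 calls in all 4 libraries, and 1032 of these also held at least 2 CpGs and were tested. A call is the reading of 1 CpG cytosine in 1 read, and the methylation level is the percent of calls that were methylated.

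The maps came from whole-genome bisulfite sequencing, in which unmethylated cytosines are read as T and methylated ones as C. DNA was taken from colonic intestinal stem cells (ISCs) and from differentiated epithelium at birth (P0) and on postnatal day 21 (P21). All 4 groups came from a cross of Lgr5-EGFP-CreER mice (C57BL/6 J by the methods) with wild-type C57 animals, labelled as strain C57, with no further treatment. ISCs were sorted for green fluorescence driven by the stem cell gene Lgr5, and differentiated cells were sorted as negative for it and positive for the epithelial protein EpCAM, so any stem cell without fluorescence would fall in the differentiated gate. Animals were pooled, from litters at P0 and from reporter-positive offspring at P21, so the P0 pools could hold littermates without the reporter, whose stem cells would enter that gate. Each of the 4 groups had 1 library. There were therefore no replicates, and every test below compares libraries and not conditions. The methods describe 1 pool of animals per age, so both populations of an age may share animals. Their agreement would then not be independent. Intervals are 95% intervals for counting error alone. Intervals and tests took each call as independent. However, PCR copies of a molecule were not told apart and neighbouring CpGs of 1 read gave separate calls. Intervals can therefore be too narrow and p-values too small.

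Over the whole genome the libraries held between 1023427645 and 1188114423 calls, of which 50.5% to 63.7% lay at positions with over 1000 calls, and a covered CpG had a median of 15 to 25 calls. Promoters of the 7 epithelial marker genes had a median level of 1.17% to 3.01% over the libraries, with Krt20 apart at 51.4% to 56.1%, and those of the 5 blood markers 77.1% to 80.8%. Of the 3 endothelial markers Cdh5 and Pecam1 were also high, whereas Kdr had 1.58% to 3.08%. The 4 stem cell markers had medians of 3.57% to 6.16%, with Olfm4 apart at 33.8% to 46.2%, and the 4 mesenchymal markers had medians of 3.37% to 6.39%, so a low promoter alone does not name a cell type. Promoter methylation is not a measure of expression, and no RNA was analysed here.

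Newborn rodents digest milk, and at weaning the lining of the gut changes its enzymes. Lactase, lysosomal galactosidase and the arginine-making enzyme argininosuccinate synthase belong to the suckling pattern, whereas sucrase-isomaltase, trehalase and arginase 2 belong to the adult pattern, and the repressor Prdm1 (Blimp1) is known to hold the neonatal pattern in place. Most of this is known from the small intestine, and the cells measured here are from the colon. DNA methylation is commonly low at active promoters and enhancers, and most CpGs outside them are methylated.

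The start of each gene was taken from its longest coding transcript (mm9). Prdm1 starts at chr10:44178554 on the minus strand, Lct at chr1:130224895 (minus), Sis at chr3:72771785 (minus) and Treh at chr9:44481316 (plus). Glb1 starts at chr9:114310194, Arg2 at chr12:80231764, Ass1 at chr2:31325727 and Cps1 at chr1:67169600, all on the plus strand. The annotated record of Prdm1 reaches further upstream, to chr10:44248307, and nothing beyond 5 kb before the start used here was analysed, so that its upstream region lies within that record. The promoters, taken as 1 kb on either side of the start, fell into 2 kinds. Those of Prdm1, Glb1, Arg2 and Ass1 held 86, 97, 72 and 76 CpGs and were covered by a CpG island (CGI) over 1155, 1309, 1153 and 994 bp. Those of Lct, Sis, Treh and Cps1 held 15, 9, 14 and 11 CpGs and no CGI.

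The 7 bins on which the results below turn are shown here, read from the mm9 sequence on the strand of the gene with CpGs in capitals. Each bin is named by the exon or intron at its centre and can reach into the next. They are the called bin nearest the start of Treh and of Lct, the bin with the largest change called in both populations in each run of changed bins found in ISCs, and the bins of Arg2 and Cps1 with the largest called change in ISCs. The first is the part before the start of transcription of the Treh bin that held no methylated call at P21, at chr9:44481201-44481315, plus strand.
Treh, before the start: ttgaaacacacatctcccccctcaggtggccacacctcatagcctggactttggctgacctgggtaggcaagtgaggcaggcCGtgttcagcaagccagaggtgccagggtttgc
The bin just upstream of Lct, at chr1:130225001-130225200 on the minus strand, held 2 CpGs separated by a pair of bases.
Lct, upstream: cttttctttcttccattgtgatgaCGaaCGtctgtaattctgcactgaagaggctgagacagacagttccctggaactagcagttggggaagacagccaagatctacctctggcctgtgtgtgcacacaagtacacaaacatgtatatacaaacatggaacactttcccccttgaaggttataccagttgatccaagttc
In Prdm1, the bin of exon 3 that gained methylation lies at chr10:44176401-44176600 and the bin of intron 4 that lost it at chr10:44166801-44167000, both shown on the minus strand.
Prdm1, exon 3: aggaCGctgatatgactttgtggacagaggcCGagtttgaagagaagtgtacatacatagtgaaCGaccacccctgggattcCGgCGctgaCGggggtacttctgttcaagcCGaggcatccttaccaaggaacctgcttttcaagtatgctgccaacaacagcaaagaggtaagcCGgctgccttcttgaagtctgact
Prdm1, intron 4: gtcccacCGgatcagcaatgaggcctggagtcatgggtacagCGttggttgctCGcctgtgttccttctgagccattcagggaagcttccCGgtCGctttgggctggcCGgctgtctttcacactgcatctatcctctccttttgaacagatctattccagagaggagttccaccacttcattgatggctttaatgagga
The last 3 bins belong to the genes of arginine and urea metabolism and are on the plus strand, at chr2:31366801-31367000 (Ass1), chr12:80235801-80236000 (Arg2) and chr1:67166001-67166200 (Cps1).
Ass1, intron 13: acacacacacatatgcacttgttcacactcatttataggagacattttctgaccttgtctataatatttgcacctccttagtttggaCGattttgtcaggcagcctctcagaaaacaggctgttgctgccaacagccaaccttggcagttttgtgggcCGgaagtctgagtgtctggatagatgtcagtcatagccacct
Arg2, intron 2: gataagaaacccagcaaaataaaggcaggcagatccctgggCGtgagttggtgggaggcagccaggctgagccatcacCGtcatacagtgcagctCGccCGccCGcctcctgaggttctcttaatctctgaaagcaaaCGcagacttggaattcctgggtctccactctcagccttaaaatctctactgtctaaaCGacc
Cps1, upstream: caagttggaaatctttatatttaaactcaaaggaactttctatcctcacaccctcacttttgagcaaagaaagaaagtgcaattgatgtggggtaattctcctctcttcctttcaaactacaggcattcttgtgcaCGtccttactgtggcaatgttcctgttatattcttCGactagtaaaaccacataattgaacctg

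**Figure D1:**
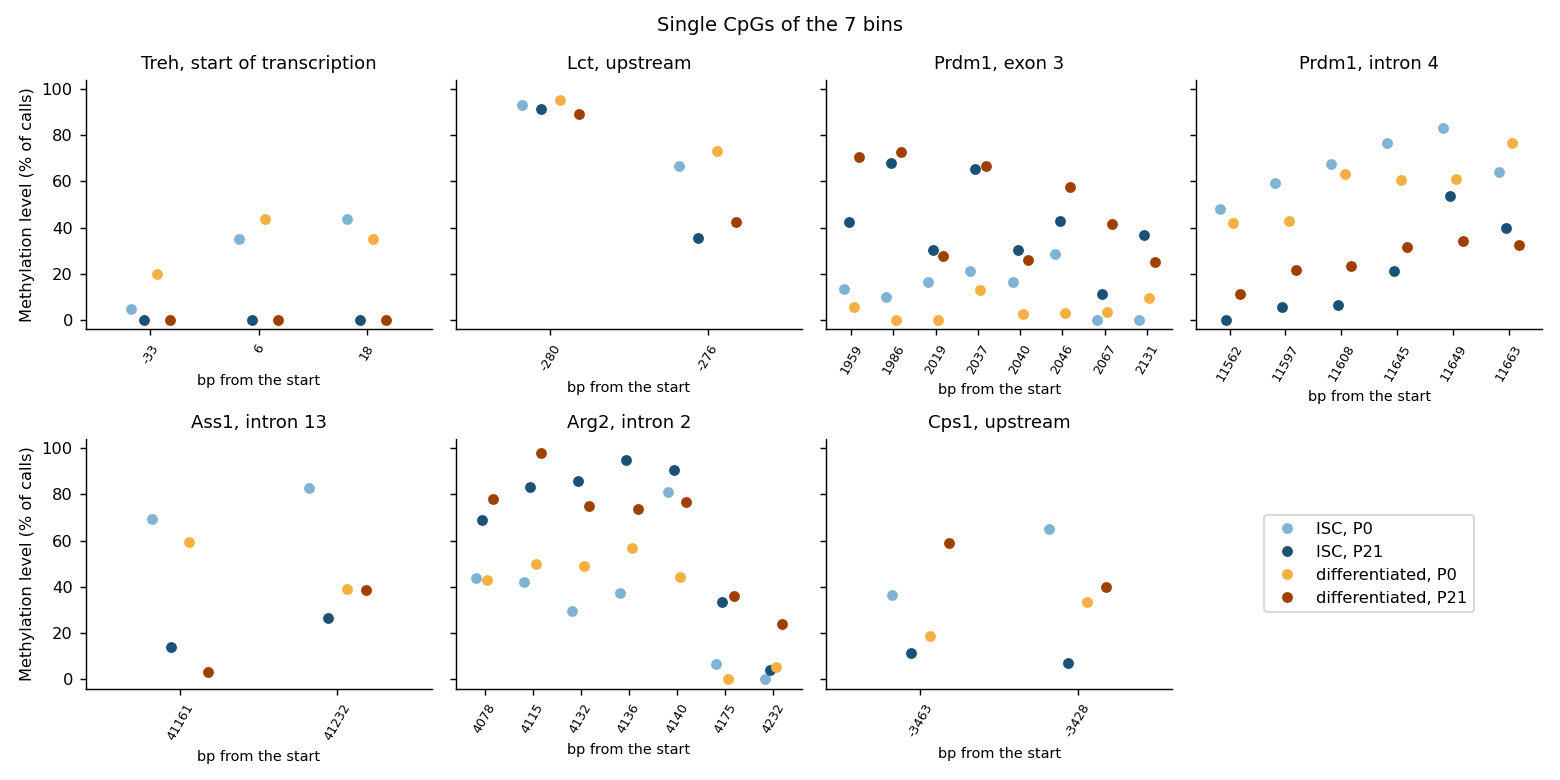
Methylation level (% of calls) of each CpG in the 7 bins whose sequence is shown, by distance from the transcription start in bp, with 1 point for each of the 4 libraries. All 3 CpGs of the Treh bin were at 0 in both P21 libraries, and each of the 8 CpGs of the Prdm1 bin over exon 3 was higher at P21 than at P0 in both populations.

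At the start of Treh, which encodes the enzyme that splits trehalose, ISCs had 26.8% (15 of 56 calls) at P0 and differentiated cells 33.9% (38 of 112). At P21 no methylated call was left, with 0 of 61 in ISCs and 0 of 97 in differentiated cells, and a floor of 3 methylated calls would be 4.92% and 3.09% (Wilson upper limits 5.92% and 3.81%). Both P0 libraries were above both P21 libraries. The level fell by 26.8 points in ISCs (interval -39.6 to -15.3, adjusted exact p = 0.000625) and by 33.9 points among differentiated cells (interval -43.1 to -25.0, adjusted exact p = 5.71e-10). Here and below, an adjusted exact p comes from Fisher's two-sided test on the calls of a bin, with the Benjamini-Hochberg correction over the 4076373 autosomal bins tested. The 3 CpGs of the bin lie at -33, 6 and 18 bp from the start, so that 1 is in the stretch printed above and the others are in exon 1. In differentiated cells at P0 they had 6 of 30, 17 of 39 and 15 of 43 methylated calls, and in ISCs 1 of 20, 7 of 20 and 7 of 16. The upstream CpG was the lowest of the 3 in both P0 libraries.

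A bin is called below when its adjusted p is under 0.05 and its levels differ by more than 15 points. Between P0 and P21, 32 of the 1032 bins were called in ISCs, or 3.10%, beside 2.56% of all autosomal bins. In differentiated cells 40 bins were called, or 3.88%, beside 2.86%. With the calls of each bin thinned to those of its lowest library, 22 and 17 bins were called in ISCs and differentiated cells, beside 1.62% and 1.25% of all bins, and 36 of the 72 calls were kept. The shares over the 8 genes were thus near the background, and Prdm1 took a large part of the calls, since without it 24 of 947 bins (2.53%) were called in ISCs and 29 (3.06%) in differentiated cells. Gains and losses were equal in ISCs, with 16 of each, and in differentiated cells there were 22 gains and 18 losses. Without Prdm1 there were 11 gains and 13 losses in ISCs, and 13 gains and 16 losses in differentiated cells. Over all autosomal bins, losses were the more frequent kind, with 1.07% gaining and 1.48% losing in ISCs, and 0.992% gaining and 1.86% losing in differentiated cells. Called changes had a median size of 26.2 points in ISCs and 26.7 in differentiated cells. In both populations, 12 of the 1032 bins were called in the same direction, beside 0.928% of all bins. In opposite directions 2 of the 1032 were called, 1 of Prdm1 and 1 of Cps1, beside 320 of the 4076373 autosomal bins.

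Differences between the cell populations of 1 age were fewer. At P0, 8 bins were called between differentiated cells and ISCs (0.775%, beside 0.508% of all bins), and at P21 3 were called (0.291%, beside 0.182%).

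**Figure D2:**
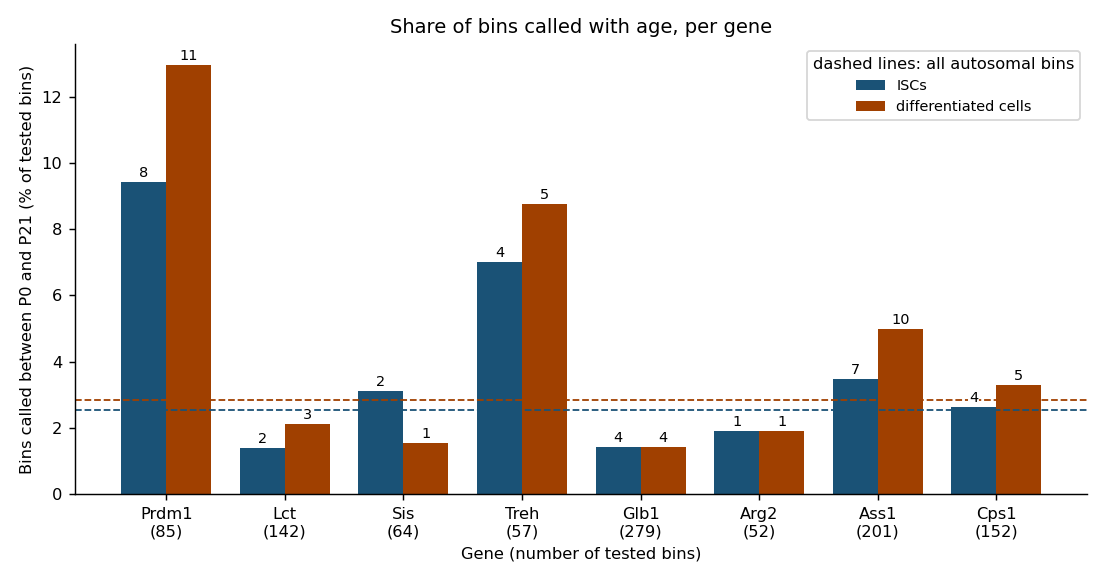
Share of tested bins called between P0 and P21 (% of the tested bins of each gene), with the number called over each bar, the number of tested bins in brackets and the share among all autosomal bins as dashed lines. Prdm1 (8 and 11 of 85 bins) and Treh (4 and 5 of 57) had the highest shares in both populations. Glb1 (4 of 279 in each), Lct (2 and 3 of 142) and Arg2 (1 of 52 in each) lay under both lines.

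Regions were also summed as a whole. Of 30 regions with usable CpGs, a single one was called between P0 and P21 in ISCs and none in differentiated cells (Fisher's exact test with Benjamini-Hochberg adjustment over all protein-coding genes for the same kind of region). These counts were near the shares over all genes, so they say nothing particular about the 8 genes. No promoter of the 7 measured was called, beside 1.8% of all promoters in ISCs and 1.61% in differentiated cells. No body of the 8 was called, beside 1.03% and 0.99%, and no last exon of the 7 measured, beside 3.45% and 3%. The called region was the stretch from 5 to 1 kb upstream of Cps1 in ISCs, beside 1.83% of all upstream regions in ISCs and 1.67% in differentiated cells. Gene bodies of the 8 genes had a median change of 1.31 points in ISCs and 0.58 in differentiated cells, beside -0.18 and -0.46 over all genes. Members' promoters had a median change of 0.48 and 0.40 points, beside -0.07 and 0.07 for all genes.

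**Figure D3:**
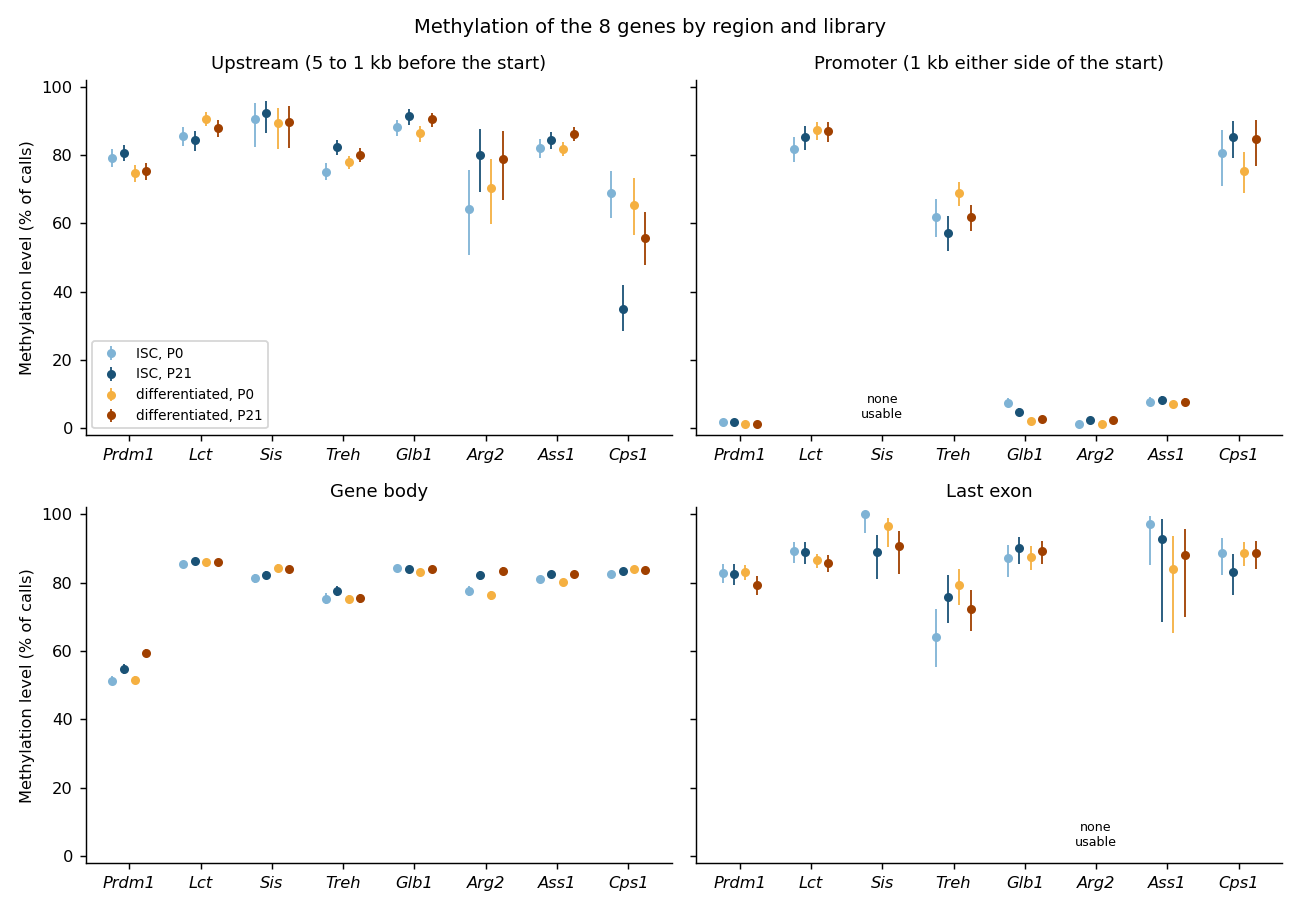
Methylation level (% of calls) of the 8 genes in 4 kinds of region, with 1 point per library and 95% Wilson intervals as bars. Promoters of Prdm1, Glb1, Arg2 and Ass1 lay under 9% in every library and those of Lct, Treh and Cps1 over 57%, and the largest gap between ages was upstream of Cps1 in ISCs. Sis had no usable promoter CpG, and Arg2 none in its last exon.

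Prdm1, which encodes a zinc finger repressor, had the highest share of called bins. Its CGI promoter was unmethylated throughout, at 1.90% (ISCs) and 1.35% (differentiated) at P0 and at 1.86% and 1.38% at P21. The body of the gene had 51.3% (ISCs) and 51.6% (differentiated) at P0, and 54.7% and 59.5% at P21. It was the lowest body level of the 8 genes, in all 4 libraries. The difference between the ages was 3.42 points in ISCs (interval 1.49 to 5.35) and 7.90 points in differentiated cells (interval 6.31 to 9.48), both under the 15 points required for a call. The last exon stayed between 79.2% and 83.0%, and the upstream region between 74.6% and 80.7%.

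Within the Prdm1 body the changes were local and ran in both directions. The 2 bins centred 1854 and 2054 bp after the start, over exon 3 and the adjoining ends of introns 2 and 3, together held 13 CpGs. Their level was 9.49% (ISCs) and 4.23% (differentiated) at P0, and 37.5% and 41% at P21. Both P21 libraries were above both P0 libraries, and both bins were called in both populations. The exon 3 bin alone rose by 28.5 points in ISCs (interval 18.0 to 37.4, adjusted exact p = 7.01e-05) and by 43.6 points among differentiated cells (interval 36.5 to 50.3, adjusted exact p = 2.14e-27). Among its single CpGs, the one at 1986 bp went from 1 of 10 to 17 of 25 methylated calls in ISCs and from 0 of 28 to 16 of 22 in differentiated cells.

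In intron 3 lay 2 further runs of gain. At 5254 and 5454 bp the level over 5 CpGs was 24.3% (ISCs) and 19.9% (differentiated) at P0, and 54.2% and 60.6% at P21. At 8254 and 8454 bp, with 11 CpGs, the level was 66.3% (ISCs) and 52.6% (differentiated) at P0, and 83.4% and 85.7% at P21. In differentiated cells at P21 the CpGs at 8553 and 8542 bp had no call and the one at 8519 bp had 2. The levels of this run are therefore not over the same CpGs in every library. In each of these runs both bins were called in differentiated cells and 1 of them in ISCs. The bin at 5454 bp had the largest called gain of the gene in differentiated cells, from 22.4% to 71.4% (adjusted exact p = 3.97e-10), and in ISCs it had 36.8% and 55.7% (adjusted exact p = 0.339). The bin at 5254 bp had the largest gain in ISCs, from 12.1% to 51.9% (adjusted exact p = 0.000973), and in differentiated cells it went from 15.3% to 43.4% (adjusted exact p = 0.0312).

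Apart from 1 bin lost in ISCs at 6654 bp in intron 3, the losses of Prdm1 lay at the boundary of intron 4 and exon 5. Over the bins at 11654 and 11854 bp, with 12 CpGs, the level in ISCs was 60.8% at P0 and 15.1% at P21. In the second of these bins, over exon 5, the change in ISCs was -36.3 points, and on the minus strand alone, which held few of its calls, it was 50 points. Over the bins at 11454 and 11654 bp, with 9 CpGs, the level in differentiated cells was 56.3% at P0 and 22.0% at P21. The bin that these runs share, whose sequence is shown above, fell by 47.7 points in ISCs (interval -57.1 to -35.9, adjusted exact p = 4.90e-11) and by 31.4 points among differentiated cells (interval -39.3 to -22.7, adjusted exact p = 1.13e-09). All 6 of its CpGs were lower at P21 than at P0 in both populations. The CpG nearest to the start, at 11562 bp, had 12 of 25 methylated calls in ISCs at P0 and 0 of 17 at P21, and 18 of 43 and 4 of 35 in differentiated cells.

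Plotted along the gene, the lost bins of intron 4 and exon 5 lay just beyond a stretch that was unmethylated at both ages. This stretch was described after the profile had been seen and takes in 7 consecutive tested bins of intron 4, from 10.1 to 11.3 kb after the start. Its level was 1.90% (ISCs) and 4.72% (differentiated) at P0, and 0.938% and 0.987% at P21, and no single bin of it passed 11.8% in any library. A stretch of 10 bins around the start was as low, at 0.678% and 0.407% at P0 and 2.0% and 1.55% at P21. Between both stretches, from 1.85 to 9.65 kb, 15 of 20 bins were higher at P21 than at P0 in ISCs and 15 in differentiated cells, with the pooled level going from 39.3% to 49.7% and from 28.8% to 52.6%. By the call, 4 of these bins gained and 1 lost methylation in ISCs, and 7 gained and 0 lost in differentiated cells.

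**Figure D4:**
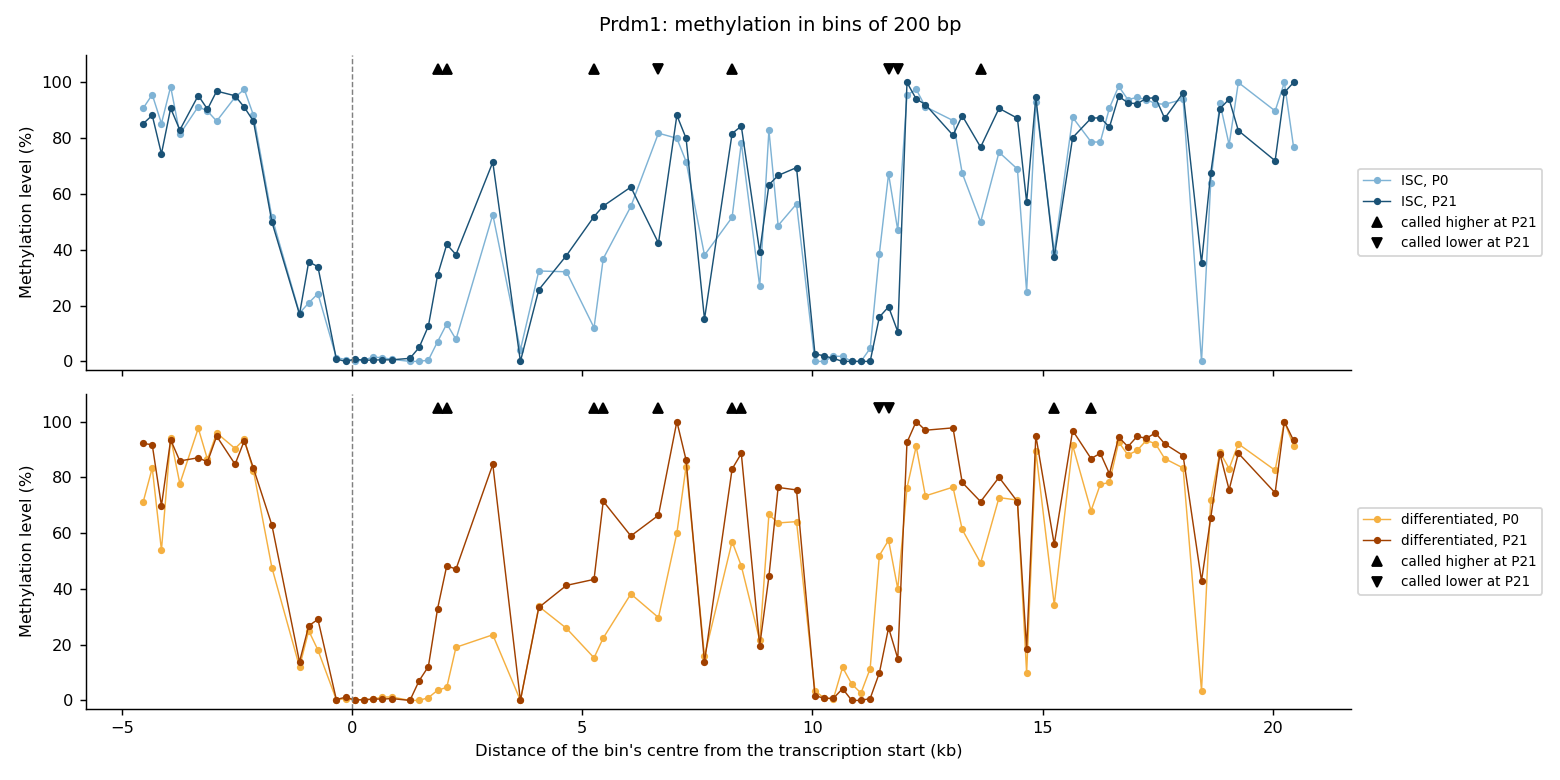
Methylation level (%) of the tested 200-bp bins of Prdm1 by distance of the bin's centre from the transcription start (kb), ISCs above and differentiated cells below, P0 in the pale and P21 in the dark colour, with triangles over the bins called higher or lower at P21. Between 1.85 and 8.45 kb lay 4 of the 5 bins called higher in ISCs and 7 of the 9 in differentiated cells, and 2 of 3 and 2 of 2 bins called lower lay between 11454 and 11854 bp, just beyond the unmethylated stretch that ends at 11.3 kb.

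Further calls in Prdm1 were single bins. In intron 5, 3 bins were called higher at P21 in 1 population each. At 13654 bp the call was in ISCs (50% to 76.8%), and differentiated cells had 49.3% and 71.3% (adjusted exact p = 0.102). At 15254 and 16054 bp it was in differentiated cells (34.3% to 55.9% and 68.0% to 86.7%). ISCs had 39.3% and 37.3% at 15254 bp, and 78.7% and 87.2% at 16054 bp. At 6654 bp the populations moved in opposite directions, as described with the differences between them.

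Of the disaccharidases, lactase (Lct) splits the sugar of milk. Its promoter was methylated at 81.8% (ISCs) and 87.2% (differentiated) at P0, and at 85.2% and 87.0% at P21. The change was 3.36 points in ISCs (interval -1.69 to 8.31) and -0.201 points in differentiated cells (interval -4.16 to 3.61). Body levels lay between 85.4% and 86.3% and last exon levels between 85.7% and 89.3%. Neither of these regions was called. Lct was the most evenly methylated body of the 8 genes, as its libraries differed by under 1 point.

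Within the Lct promoter, 2 bins on either side of the start moved in opposite directions in differentiated cells. The bin at -205 bp had 79.8% (ISCs) and 84.0% (differentiated) at P0, and 63.2% and 66.4% at P21. It was called in differentiated cells, where it fell by 17.7 points (interval -28.1 to -7.33, adjusted exact p = 0.0357), and not in ISCs, where the difference was -16.6 points (adjusted exact p = 0.251). The change was at 1 of its 2 CpGs. The CpG at -276 bp had 28 of 42 methylated calls in ISCs and 60 of 82 in differentiated cells at P0, and 17 of 48 and 23 of 54 at P21, whereas its neighbour at -280 bp had 39 of 42, 77 of 81, 43 of 47 and 50 of 56. On the minus strand alone, which held few of the calls, the bin changed by 0 points in differentiated cells. In exon 1 the bin at 395 bp had 82.1% and 80.4% at P0 and 100% in both P21 libraries, a rise called in differentiated cells (19.6 points, adjusted exact p = 0.00648).

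Deeper in Lct, adjacent bins of intron 9 gained methylation. The bin at 30595 bp was called in ISCs (38.8% to 61.5%, adjusted exact p = 0.0198) and the bin at 30795 bp in differentiated cells (51.1% to 71.4%, adjusted exact p = 0.0193). In the other population the first had 49.3% and 51.4% and the second 58.2% and 64.0%. A bin of intron 6, at 23195 bp, gained 15.7 points in ISCs (40.7% to 56.4%). In all, Lct had 2 called bins in ISCs and 3 in differentiated cells of 142, with none called in both.

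Sucrase-isomaltase (Sis), which digests the sugars of solid food, was poorly covered, as 64 of its 260 bins with a CpG were tested and its promoter had no usable CpG. Its body had 81.3% (ISCs) and 84.4% (differentiated) at P0, and 82.3% and 83.9% at P21. The last exon rested on 3 CpGs and had 100% and 96.6% at P0 and 89.0% and 90.6% at P21. In introns 3 bins were called higher at P21, each in 1 population. In intron 6, at 10685 bp, the level in ISCs went from 60.6% to 90.9% (interval of the difference 17.6 to 40.9, adjusted exact p = 0.00105), and differentiated cells had 85.6% and 84.9%. In intron 41, at 62885 bp, ISCs went from 59.7% to 79.4% (adjusted exact p = 0.00705) and differentiated cells had 72.2% and 74.7%. In intron 10, at 16285 bp, differentiated cells went from 58.8% to 80.4% (adjusted exact p = 0.00664) and ISCs had 58.0% and 68.5%. At the 2 bins called in ISCs, the P0 library of ISCs was below the other 3 libraries. On the plus strand alone the intron 10 bin changed by -2.78 points in differentiated cells.

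Trehalase (Treh) had the change at its start given above, and its promoter as a whole was of middle level. It had 61.7% (ISCs) and 68.7% (differentiated) at P0, and 57.1% and 61.7% at P21, and was not called. Within 500 bp of the start, an alternative window, it fell by 18.8 points (ISCs) and by 28.5 points (differentiated), and both changes were called. That window holds the bin at the start and the bin at 384 bp, so it is not a separate result. It is not set beside all promoters here. Downstream of the bin at the start, the bin at 384 bp in intron 1 went from 92.3% to 71.1% in differentiated cells (adjusted exact p = 0.00179) and had 82.4% and 62.1% in ISCs (adjusted exact p = 0.423). Further upstream, at -1216 bp, methylation rose in differentiated cells from 40.5% to 58.7% (adjusted exact p = 0.0180), with 43.0% and 58.5% in ISCs (adjusted exact p = 0.245).

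The long intron 1 of Treh held more calls. At 2984 bp the level was 65.7% (ISCs) and 55.7% (differentiated) at P0, and 29.9% and 25.6% at P21, a loss called in both (adjusted exact p = 0.0300 and 0.0104). At 6584 bp ISCs went from 16.8% to 0%, with 0 of 78 calls at P21 (floor of 3 calls 3.85%, Wilson upper limit 4.69%), and the loss was called (adjusted exact p = 0.00415). Differentiated cells went from 14.6% to 2.05% in that bin, a difference under 15 points (adjusted exact p = 0.000438). Gains were called at 1784 bp in differentiated cells (19.1% to 46.7%) and in intron 8 at 10184 bp in ISCs (76.2% to 94.3%). The body as a whole had 75.1% to 77.7%. Of the 57 tested bins, 4 were called in ISCs and 5 in differentiated cells, 2 of them in both.

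Glb1 encodes the acid galactosidase of lysosomes. Its CGI promoter had 7.48% (ISCs) and 2.23% (differentiated) at P0, and 4.89% and 2.63% at P21. The ISC library of P0 was the highest of the 4, and the 2 libraries of differentiated cells were lower than those of ISCs. The body had 84.2% (ISCs) and 83.0% (differentiated) at P0, and 83.9% and 83.9% at P21. Of its 279 tested bins, the most of the 8 genes, 4 were called in each population, none in both.

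Several of the Glb1 calls lay around exon 2. The bin over exon 2, at 15906 bp with 10 CpGs, had 78.3% in differentiated cells at P0 and 49.1% at P21 (interval of the difference -36.4 to -21.6, adjusted exact p = 3.83e-11), and 71.8% and 59.6% in ISCs (adjusted exact p = 0.413). In intron 2, at 16906 bp, ISCs went from 92.3% to 64.5% (adjusted exact p = 0.0154) and differentiated cells had 87.8% and 72.8% (adjusted exact p = 0.128). These bins were lower at P21 in both populations and were called in 1. The largest called change in differentiated cells, at 16506 bp, went from 88.6% to 52.9% (adjusted exact p = 0.0120), while ISCs had 40% of 15 calls and 66.7% of 27. Losses were also called in ISCs at 15506 bp, before exon 2 (91.2% to 69.1%), and in intron 15 at 71106 bp (82.4% to 57.5%). A gain was called in ISCs in intron 11 at 50706 bp (77.5% to 95.4%). Differentiated cells had 86.0% and 82.3%, 73.2% and 60.8%, and 90.1% and 96.1% there, not called. In differentiated cells gains were called in intron 1 at 13706 bp (47.1% to 80.6%) and in intron 5 at 25306 bp (50% to 75.7%). ISCs had 73.3% and 88.9%, and 72.4% and 75.0% there, not called.

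The last 3 genes act on arginine and urea. Arginase 2 (Arg2) splits arginine in mitochondria, and its CGI promoter was unmethylated, at 1.33% (ISCs) and 1.23% (differentiated) at P0 and at 2.47% and 2.50% at P21. Its body had 77.6% and 82.2% in ISCs and 76.3% and 83.4% in differentiated cells at P0 and P21, differences of 4.60 points (interval 2.53 to 6.67) and 7.13 points (interval 5.29 to 8.95), which are under the 15 points of a call. A single bin was called, in intron 2 at 4136 bp, and it was called in both populations. Its level was 37.0% (ISCs) and 38.6% (differentiated) at P0, and 64.4% and 69.2% at P21. The gain was 27.4 points (interval 16.3 to 37.6, adjusted exact p = 0.000231) and 30.6 points (interval 23.3 to 37.3, adjusted exact p = 3.05e-13). All 7 CpGs of the bin were higher at P21 in both populations, and the pair at the downstream end of the printed sequence was the least methylated, with 0 of 18 and 2 of 38 calls at P0 and 1 of 24 and 7 of 29 at P21 for the last. The upstream region of Arg2 rested on 7 of 43 CpGs and had 64.2% and 70.2% at P0 and 80.0% and 78.7% at P21.

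Argininosuccinate synthase (Ass1) joins citrulline and aspartate on the way to arginine. The CGI promoter had 7.74% (ISCs) and 7.02% (differentiated) at P0, and 8.23% and 7.77% at P21, with intervals of the differences from -1.38 to 2.32 and from -0.525 to 2.05 points. The body had 81.1% and 80.1% at P0 and 82.6% and 82.4% at P21. A cluster of losses lay in intron 13, near the end of the gene. Over the bins at 41173 and 41373 bp, with 6 CpGs, the level was 46.9% (ISCs) and 41.2% (differentiated) at P0, and 13.8% and 13.3% at P21. Both P21 libraries were below both P0 libraries, and both bins were called in both populations. In the bin at 41173 bp, whose sequence is shown, the level fell by 59.6 points in ISCs (77.8% to 18.2%, interval -73.2 to -38.6, adjusted exact p = 2.08e-05), the largest called change of all member bins in ISCs, and by 38.7 points among differentiated cells (52.0% to 13.3%, adjusted exact p = 0.00442). Its 2 CpGs differed in differentiated cells, with 19 of 32 and 1 of 32 methylated calls at P0 and P21 at the first and 7 of 18 and 5 of 13 at the second. In ISCs both were lower at P21, going from 9 of 13 to 4 of 29 and from 19 of 23 to 4 of 15.

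More bins of the same Ass1 intron were lower at P21. In differentiated cells the run extended to the bin at 41573 bp, and the level over its 3 bins and 10 CpGs went from 54.9% to 33.7%. The bin at 42373 bp fell in both populations, from 93.5% to 73.7% in ISCs (adjusted exact p = 0.00750) and from 91.8% to 72.6% in differentiated cells (adjusted exact p = 0.0182). The bin at 40573 bp fell in differentiated cells from 92.4% to 62.8% (adjusted exact p = 1.46e-05) and had 91.4% and 78.0% in ISCs (adjusted exact p = 0.427). Elsewhere Ass1 gained methylation. A run of 2 bins in intron 5, at 14773 and 14973 bp with 9 CpGs, rose in differentiated cells from 54.9% to 74.7% and had 62.3% and 68.0% in ISCs, where neither bin was called. The bin at 1573 bp in intron 1 gained in both populations, from 19.2% to 56.5% in ISCs (adjusted exact p = 0.0450) and from 32.4% to 55.0% in differentiated cells (adjusted exact p = 0.0175). On either side of the edge of the promoter, the bin at -1627 bp rose in differentiated cells from 21.9% to 51.3% (14.7% and 42.5% in ISCs, not called) and the bin at -427 bp fell from 39.1% to 21.2% (22.8% and 29.3% in ISCs, not called). In ISCs alone 3 further bins were called higher at P21, at 4373 bp (79.7% to 96.8%), 19773 bp (82.3% to 98.5%) and 33773 bp (60% to 81.8%). Differentiated cells had 77.6% and 84.5%, 82.1% and 92.1%, and 76.7% and 66.1% there.

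Carbamoyl-phosphate synthase 1 (Cps1) makes the first intermediate of the urea cycle in mitochondria. Its promoter had 80.5% (ISCs) and 75.3% (differentiated) at P0, and 85.3% and 84.5% at P21, on 7 of 11 CpGs, and was not called. The upstream region had 68.8% and 65.3% at P0 and 34.9% and 55.8% at P21. In ISCs it fell by 33.9 points (interval -43.0 to -23.7, adjusted exact p = 8.66e-09), and in differentiated cells the difference was -9.55 points (interval -20.6 to 1.99, adjusted exact p = 0.274). It rested on 5 of 19 CpGs, 2 of them in the bin at -3500 bp. In ISCs that bin had 41 of 76 and 7 of 77 methylated calls at P0 and P21. The whole region had 117 of 170 and 65 of 186. In differentiated cells the bin had 11 of 40 and 25 of 52, and the region 81 of 124 and 87 of 156. Region and bin are thus not separate results, and the rest of the region was not tested alone. On the minus strand alone the level of the region in ISCs changed by -37.7 points, and the plus strand alone had too few calls for a value. The bin at -3500 bp, shown above, had 53.9% (ISCs) and 27.5% (differentiated) at P0, and 9.09% and 48.1% at P21. ISCs at P21 were below the other 3 libraries in both of its CpGs.

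In the body of Cps1, with 82.6% to 84.1% in the 4 libraries, the called bins were mostly losses. In ISCs there were 3 in the body, all losses, of which the bin in intron 15 at 44500 bp was the largest (100% to 61.9%, adjusted exact p = 0.0151). In differentiated cells 4 bins of introns lost methylation, the largest in intron 28 at 84300 bp (66.7% of 18 calls to 13.0% of 23, adjusted exact p = 0.0273), where ISCs had 24.0% of 25 and 13.3% of 15. In exon 3, at 19900 bp with 6 CpGs, ISCs went from 100% to 74.4% and differentiated cells from 79.2% to 100%. No bin of Cps1 was called in the same direction in both populations.

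Whether the change with age differed between the populations was tested by the age by population term of a logistic model on the calls of the 4 libraries. An adjusted p under 0.05 was found for 11 of the 1032 bins, beside 0.695% of all autosomal bins, namely 5 of Glb1, 4 of Cps1 and 2 of Prdm1. In intron 3 of Prdm1, at 6654 bp, ISCs went from 81.8% to 42.4% and differentiated cells from 29.7% to 66.4%. In this bin ISCs and differentiated cells thus exchanged their order between the ages. The 4 bins of Cps1, among them those in exon 3 and at -3500 bp, and the 5 bins of Glb1 also moved in opposite directions. Among whole regions, the term passed for the Prdm1 and Glb1 bodies, beside 13.4% of all bodies, for the Glb1 promoter, beside 11.4% of all promoters, and for the region upstream of Cps1, beside 7.68% of such regions. The last of these holds the bin at -3500 bp.

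**Figure D5:**
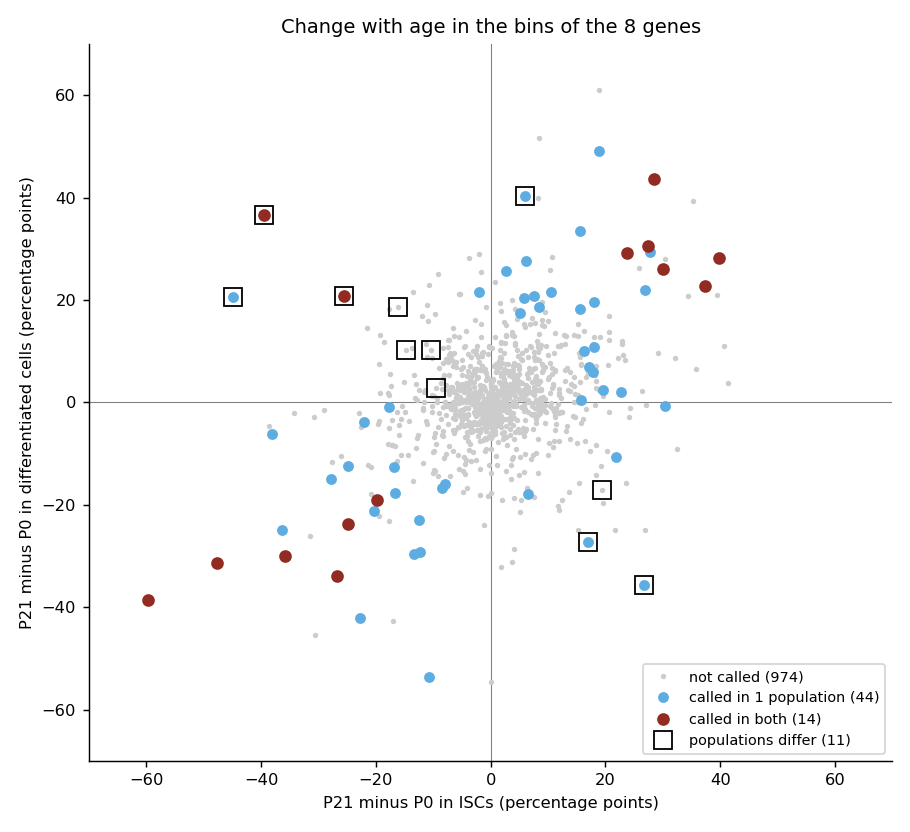
Change in methylation from P0 to P21 (percentage points) of the 1032 member bins in ISCs (x axis) and in differentiated cells (y axis), with bins called in 1 or in both populations in colour and squares around the 11 bins whose change differed between the populations. Of the 14 bins called in both, 12 lie in the quadrants of equal direction and 2 in that of loss in ISCs and gain in differentiated cells.

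Between the populations of 1 age, 2 member regions were called. The last exon of Treh had 64.2% (ISCs) and 79.2% (differentiated) at P0 (adjusted exact p = 0.0445), beside 1.05% of all last exons called, and the region upstream of Cps1 differed at P21 by 20.8 points (adjusted exact p = 0.00171), beside 0.859% of all upstream regions. The latter holds the Cps1 bin at -3500 bp, which was itself called at P21. Of the 8 bins called at P0, 3 lay in Glb1 and 2 in intron 3 of Prdm1, and all 5 were lower in differentiated cells. The others were in Lct, Sis and Cps1, 1 in each, and were higher there. Of the 3 bins called at P21, 2 were the Cps1 bins at -3500 bp and in exon 3, both higher in differentiated cells. The other lay in intron 5 of Prdm1 at 14654 bp, with 57.1% in ISCs and 18.5% in differentiated cells (adjusted exact p = 0.0139).

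Other genes of these pathways were taken from 6 lists with 39 measured genes and 4363 tested bins. The lists were chosen with earlier results of these data known. Over all lists 68 bins gained and 151 lost methylation with age in ISCs (5.02% called), and 91 gained and 146 lost in differentiated cells (5.43% called), beside 2.56% and 2.86% of all autosomal bins. Losses outnumbered gains over all autosomal bins too (1.48% against 1.07% in ISCs and 1.86% against 0.992% in differentiated cells). The lists had 488 to 1239 tested bins each. By list, 3.43% to 6.30% of them were called in ISCs and 3.73% to 6.76% in differentiated cells. Among 8 regulators of the enzymes, 8 bins gained and 38 lost in ISCs, and 11 gained and 42 lost in differentiated cells. Among 10 genes of the urea cycle and arginine the counts were 22 and 56 in ISCs and 25 and 43 in differentiated cells. Of these 56 losses, Oat held 19 and Slc7a7 and Aldh18a1 11 each. In sugar digestion and uptake (5 genes) they were 12 and 18, then 8 and 20, and in milk uptake (3 genes) 4 and 14, then 15 and 14. For 5 brush border peptidases and phosphatases 12 and 12, then 20 and 14 were counted, and for 8 lysosomal glycosidases and galactosidase partners 10 and 13, then 12 and 13.

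Over whole regions, 2 of 39 promoters, 3 of 39 upstream regions, 2 of 38 bodies and 2 of 37 last exons of the lists were called in ISCs, beside 1.8%, 1.83%, 1.03% and 3.45% of all genes. In differentiated cells the counts were 3, 3, 1 and 0, beside 1.61%, 1.67%, 0.99% and 3%. The promoter of Hnf4a, a nuclear receptor that drives enterocyte genes, had 35.4% (ISCs) and 32.6% (differentiated) at P0 and 13.5% and 13.6% at P21. The body of Nags, which makes the activator of Cps1, rose from 25.2% to 57.8% in ISCs and from 27.7% to 48.5% in differentiated cells. Around Oat, which links ornithine and proline, the upstream region fell from 58.3% to 32.2% in ISCs and from 59.7% to 34.2% in differentiated cells, and the body and last exon were called lower in ISCs. The region upstream of Cdx2, an intestinal identity factor, fell from 43.3% to 19.8% and from 46.6% to 24.9%, and its last exon was called lower in ISCs. The promoter of Anpep, an aminopeptidase of the brush border, rose from 30.7% to 46.0% and from 22.1% to 42.1%.

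Called in differentiated cells alone were a gain at the promoter of Cubn (41.6% to 59.4%) and a loss upstream of Mgam (69.8% to 49.9%). Cubn is a receptor for uptake of proteins, and Mgam is the maltase that works beside sucrase-isomaltase. Among the genes with the highest counts of bins called in ISCs were Oat (19 of 60), Slc25a13 (14 of 502), Slc7a7 (14 of 145), Aldh18a1 (13 of 144) and Slc5a1 (11 of 145). The share of Slc25a13 was near the 2.56% of all bins.

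The gene with the most similar pattern was sought for each member by the distance over 12 levels, those of promoter, body and last exon in the 4 libraries, among 13924 genes with at least 50 calls in each. The nearest were Nes to Prdm1 (2.28 points apart per level), Iqcf4 to Lct (1.89), Aqp8 to Treh (4.08), Rnf169 to Glb1 (1.15) and Lrrc31 to Cps1 (2.30). Sis, Arg2 and Ass1 had too few calls in a region to be compared.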

How the data were processed

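By the study's methods and the labels, adaptor-ligated DNA was bisulfite-converted, amplified and sequenced as paired-end reads, and the authors mapped the reads to mm9 with Bismark (Bowtie is also named in the submitters' processing notes). The sources used here do not give versions or any removal of duplicate reads. Per cytosine, the authors deposited the count of calls and how many of them were methylated. The deposited fraction in the same files is their ratio and was not used.

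Both strands of a CpG were summed, and positions off a reference CpG (0.465% to 0.850%) were left out. Genes came from GENCODE M1, taking the longest coding transcript, and sequences from the mm9 reference. Bins needed 2 CpGs and 10 calls in all 4 libraries. Regions were the promoter (1 kb either side of the start), the upstream stretch, the body and the last exon, over CpGs in bins with 10 calls. A CGI was any window of 500 bp with at least 25 CpGs. Tests were two-sided Fisher's exact tests and, for the difference between populations, a likelihood-ratio test of a logistic model, adjusted by Benjamini-Hochberg over all autosomal bins or over all genes. Intervals were Wilson (levels) and Newcombe (differences). The code was tested on simulated data (Python 3.11.15, numpy 2.4.6, scipy 1.17.1, numba 0.67.0).

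Groups came from the labels, with 1 library each. Named were all 8 genes, each run of at least 2 adjacent called bins, the largest called bin per gene and population, and from the lists the genes with a called region and the 6 with the most called bins. The results of 2 genes on the lists are not reported here. Other called bins were named after their values were seen. The genes, lists and tests were chosen with earlier results of these data known. Promoter sequences of another assembly and RNA data were not used here. The alternatives were other minima, thresholds, bins, windows, transcripts, strands and depths.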

Additional observations from a re-analysis of the deposited data

Results flagged for a closer look

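The results below are those where the change with age differed between ISCs and differentiated cells by the likelihood-ratio test across the 4 libraries, and each value is the change in differentiated cells minus that in ISCs, in percentage points. In single bins of Prdm1 they were 76.1 at 6654 bp after the start, where the populations moved in opposite directions, and 34.3 at 8454 bp, where the P0 library of differentiated cells (48.2%) lay below the other 3 (78.4% to 88.5%). The CpGs of the latter bin at 8553 and 8542 bp had no call in differentiated cells at P21, so its levels are over unlike CpGs. In Cps1 the value was 65.4 at -3500 bp, 46.4 in exon 3, -44.3 in intron 7 and 34.7 in intron 30.

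In Glb1 5 bins were also found, with 20.6 at 13306 bp, -62.4 at 16506 bp, 12.3 at 30506 bp, -36.4 at 45506 bp and 24.8 at 65506 bp. The bin at 16506 bp had 15 calls in ISCs at P0, the fewest of these bins. Over whole regions the values were 4.48 for the Prdm1 body, 1.25 for the Glb1 body, 2.99 for the Glb1 promoter and 24.3 for the region upstream of Cps1, which holds the bin at -3500 bp. With 1 library in each group, a difference between libraries of other origin and a difference between populations cannot be told apart.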

How the results depend on the processing

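No paired analysis was possible because each group has 1 library and the labels give no replicate numbers. The counts of member bins called depended on the threshold. Among these settings, the share of all autosomal bins is given above only for the thinned calls with age. The other counts below are not set beside the genome. They therefore do not show whether the member genes departed from the background. With at least 4 CpGs per bin, 21 bins were called with age in ISCs, 24 in differentiated cells and 1 between the populations at P21. At over 30 points the counts were 11 and 13 with age and 4 between populations at P0. With 15 points and no test they were 157 and 127 with age, 95 at P0 and 80 at P21. With calls thinned to the lowest library 17 were called in differentiated cells with age, 5 between populations at P0 and 1 at P21, and 36 of the 72 calls with age were kept. A minimum of 20 or 40 calls, bins shifted by 100 bp, bins over 1000 calls left out, single CpGs and chromosome X moved no count with age by over 1.5 times. Of the 72 calls with age, 6 were not kept with bins of 1 CpG included and 2 with chromosome X included. At the minimum of 4 CpGs, 42 of the 72 calls could still be tested, and all 42 were kept. The cause of the other shifts was not tested.

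For regions, 2 were called with age in ISCs at a minimum of 20 calls (the second being upstream of Arg2) and 0 on the plus strand alone, 1 in differentiated cells on the minus strand alone (the Treh promoter), and 2 regions differed between populations on the plus strand alone. Of 54 region differences with age, 18 moved out of their interval on the minus strand alone and 17 on the plus strand alone. So did 10 of 60 with the mean of bin levels and 6 of 14 with a promoter window of 2 kb. Single strands were chosen as alternatives for bins after seeing the data. They were read only for bins printed above, in runs or with the largest called change of a gene. Of the 72 calls with age, 34 were checked on the minus strand and 33 on the plus strand. Of these, 6 and 5 moved without losing their direction. It was lost by 3 called changes, namely the Lct bin at -205 bp in differentiated cells (0 points, minus strand), the Sis bin in intron 10 in differentiated cells (-2.78, plus strand) and the Prdm1 bin in exon 5 in ISCs (50 points, minus strand). Of the 157 bins that differed with age by over 15 points in ISCs 32 passed the test, and of 127 in differentiated cells 40.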
